A study of Mus musculus with 4 samples.

Results

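The genes described here are 5 genes of the intestinal epithelium whose products bind receptors on intraepithelial lymphocytes (IELs): H2-T3, Btnl1, Btnl4, Btnl6 and Cdh1. They were taken from a named list of such ligands, and all 5 of them were found among the 19339 genes listed. H2-T3 encodes the thymus leukemia antigen, Btnl1, Btnl4 and Btnl6 encode butyrophilin-like proteins, and Cdh1 encodes E-cadherin.

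RNA-seq was done on small intestinal TCRβ+CD8αα+ IELs of C57BL/6 mice, sorted as CD45+ CD4- TCRβ+ CD8α+ CD8β- cells, in 4 libraries. Each group had 2 libraries, Kdm6bfl/fl (control) and Kdm6bfl/fl-CD4Cre (Kdm6b-deficient), numbered replicates 1 and 3 in the labels. Both groups carried the loxP-flanked Kdm6b alleles, and the CD4Cre transgene, which acts in T-lineage cells and not in the epithelium, was present only in the second. The RNA of 3 mice was pooled in each library, the ages of the mice were not given, and the p-values below measure the spread between such pools.

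IELs live between the epithelial cells of the gut and are held and instructed there by molecules on those cells. The thymus leukemia antigen is a nonclassical MHC class I molecule that binds the CD8αα homodimer with high affinity. Btnl1 and Btnl6 form a pair on villus enterocytes that supports Vγ7+ γδ IELs, and Btnl4 is a close relative of Btnl6. E-cadherin, the adhesion molecule of epithelial junctions, binds the integrin CD103/β7 and the inhibitory receptor KLRG1. These genes are best known from the epithelium, so their RNA in a sorted lymphocyte library was read beside epithelial marker RNA throughout.

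The values were FPKM (fragments per kilobase of transcript scaled to the mapped fragments of the library), a measure of level per transcript length. No counts were given, but low FPKM values lay on steps whose size differs with depth. From these steps the depth relative to Kdm6bfl/fl replicate 1 was 0.986 in Kdm6bfl/fl replicate 3, 1 in Kdm6bfl/fl-CD4Cre replicate 1 and 0.824 in Kdm6bfl/fl-CD4Cre replicate 3. The fragment numbers and 95% counting intervals below were estimated in this way, are approximate, and cover counting error only. The sort was seen in the T cell genes: Cd8a lay between 280.46 and 462.72 FPKM and Cd3e between 303.81 and 505.26, while Cd8b1, excluded by the gate, lay between 0 and 1.64. Cd4, also excluded by the gate, was at 30.55 and 10.13 FPKM in the Kdm6bfl/fl libraries and at 30.47 and 3.17 in those labelled Kdm6bfl/fl-CD4Cre, so it was not absent. Kdm6b itself was at 16.5 and 16.01 FPKM in the Kdm6bfl/fl libraries and at 18.24 and 11.07 in those labelled Kdm6bfl/fl-CD4Cre (log2 fold change -0.18, SE 0.29, limma adjusted p = 0.886). FPKM over the whole gene does not show the deleted exons, and 1 library labelled Kdm6bfl/fl-CD4Cre held more Kdm6b RNA than either control, so each group is named by its label.

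Epithelial RNA was present in all 4 libraries, and in unequal amounts. All 25 epithelial markers, from Epcam and the keratins to Fabp1, Muc2 and Cdx1, were above 0 in each library. Their mean level, with Kdm6bfl/fl replicate 1 set to 1, was 3.14 in Kdm6bfl/fl replicate 3, 3.07 in Kdm6bfl/fl-CD4Cre replicate 1 and 7.2 in Kdm6bfl/fl-CD4Cre replicate 3. This epithelial level is given beside each ligand below. It was lowest in 1 control and highest in 1 Kdm6bfl/fl-CD4Cre library, while the other 2 libraries, 1 of each genotype, were close in this mean. The T cell markers went the other way, at 1, 0.797, 0.73 and 0.545 in the same order.

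The sequences in front of the H2-T3 and Btnl1 start sites are shown because both hold the same 8 letters close to the start. They are written along the coding strand of each gene, 5′ to 3′, from RefSeq (GRCm38.p6), and 4 of the 5 genes had an entry. H2-T3 is on the minus strand with its window at chr17:36190152-36190401, and Btnl1 is on the plus strand with the part of its window outside the gene at chr17:34376882-34377122. Capitals mark the letters CAAAGTCC, the core of a motif that HNF4 factors bind.
H2-T3: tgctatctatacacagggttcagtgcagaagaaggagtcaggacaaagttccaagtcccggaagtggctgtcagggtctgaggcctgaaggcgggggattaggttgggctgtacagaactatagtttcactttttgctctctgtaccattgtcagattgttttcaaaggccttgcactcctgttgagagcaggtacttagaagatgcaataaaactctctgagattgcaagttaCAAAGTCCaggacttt
Btnl1: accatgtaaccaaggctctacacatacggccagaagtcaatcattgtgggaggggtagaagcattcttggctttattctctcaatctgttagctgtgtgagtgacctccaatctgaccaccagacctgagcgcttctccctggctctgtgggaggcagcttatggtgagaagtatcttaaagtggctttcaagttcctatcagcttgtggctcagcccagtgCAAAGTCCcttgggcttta
These letters began 16 bases before the start site of H2-T3 and 28 bases before that of Btnl1, as the promoter annotation places them. The start site of Btnl1 used there lies 9 bases inside the gene coordinates given below, and those 9 bases are not shown. Searched on both strands of the 250 bases before the start, CAAAGTCC was in 393 of 32851 annotated promoters (1.2%). It was in the window of 1 of the 21 epithelial markers with an entry (Alpi, intestinal alkaline phosphatase) and of 1 of the 8 T cell markers with an entry (Cd8a). The motif was chosen with these promoters in view, so the match is a description. Of 3 other searches, TTTATG (bound by CDX factors), AGATAA (bound by GATA factors) and the interferon-stimulated response element (GAAA repeated after a gap of 2 bases), held by 10.8%, 9.99% and 2.98% of the promoters, none matched the windows of the 4 genes. For Btnl4 and Btnl6 the annotated start lay inside the gene, so their windows, which do not hold CAAAGTCC, are not shown.

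H2-T3 (Entrez 15043, chr17:36185571-36190151, mm10) was detected in every library, at 2.85 FPKM in Kdm6bfl/fl replicate 1, 11.68 in Kdm6bfl/fl replicate 3, 8.97 in Kdm6bfl/fl-CD4Cre replicate 1 and 13.18 in Kdm6bfl/fl-CD4Cre replicate 3. The first control stood apart with about 88 fragments against about 277 to 356 in the other 3 libraries, and the groups overlapped. The group means were 7.26 ± 6.24 (SD, n = 2) and 11.1 ± 2.98 (SD, n = 2) FPKM. The log2 fold change was 0.77 (SE 0.60), with a limma adjusted p of 0.779, and it was -0.09 without Kdm6bfl/fl replicate 1. Scaling the libraries to the epithelial markers moved the median of all genes to -1.264, and H2-T3 to -0.43, which is 0.83 relative to that median against 0.77 without the scaling. Such a scaling moves all genes nearly alike, so a value relative to that median returns near the unscaled one by construction. Values relative to all genes, here and below, therefore do not test whether a difference holds at equal epithelial RNA. In a bulk library, fewer cells of a type and less RNA per cell cannot be told apart.

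The counting intervals of H2-T3 separated the first control (2.29 to 3.51 FPKM) from the rest. The interval of Kdm6bfl/fl replicate 3 (10.5 to 13 FPKM) overlapped that of Kdm6bfl/fl-CD4Cre replicate 3 (11.8 to 14.7 FPKM). It did not overlap that of Kdm6bfl/fl-CD4Cre replicate 1 (320 to 395 against 245 to 312 fragments). At a window of 50 bases, 29 of the 2263 windows of the H2-T3 transcript (1.28%) were also in transcripts of other genes, among them H2-D1 and H2-K1, and none was at 100 bases, so most of its sequence was its own. A second thymus leukemia antigen gene, H2-T18, looked at after the values were seen, was far lower, at 0, 0.07, 0.27 and 1.32 FPKM in the same order of libraries. Summed over both genes the level was 2.85, 11.75, 9.24 and 14.50 FPKM.

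Btnl1 (Entrez 100038862, chr17:34377123-34386162) was at 2.41 and 3.47 on the log2(FPKM + 1) scale in the Kdm6bfl/fl libraries and at 3.55 and 5.07 in the libraries labelled Kdm6bfl/fl-CD4Cre. The FPKM was 4.31 (about 121 fragments) in Kdm6bfl/fl replicate 1, 10.75 (about 301) in Kdm6bfl/fl-CD4Cre replicate 1 and 32.69 (about 755) in Kdm6bfl/fl-CD4Cre replicate 3. Kdm6bfl/fl replicate 3, with about 279 fragments, was just below the first Kdm6bfl/fl-CD4Cre library, so the groups did not overlap. These 2 libraries were within counting error of each other (intervals 8.95 to 11.4 and 9.57 to 12 FPKM). The group means were 7.21 ± 4.09 (SD, n = 2) and 21.7 ± 15.5 (SD, n = 2) FPKM. The log2 fold change was 1.37 (SE 0.60), a fold of 2.59 on the log2(FPKM + 1) scale, and did not pass the test (limma adjusted p = 0.755). It was 0.61 without Kdm6bfl/fl-CD4Cre replicate 3, 0.84 without Kdm6bfl/fl replicate 1, 2.13 without Kdm6bfl/fl-CD4Cre replicate 1 and 0.09 when scaled to the epithelial markers (1.36 relative to the median of all genes). No 50-base window of the Btnl1 transcript was found in a transcript of another gene.

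Btnl6 (Entrez 624681, chr17:34507870-34518776), which encodes the partner of Btnl1, was listed at 0 in 3 libraries and at 2.77 FPKM, about 48 fragments, in Kdm6bfl/fl-CD4Cre replicate 3. A count of 0 allowed up to 0.143 FPKM in the replicates numbered 1 and up to 0.145 FPKM in Kdm6bfl/fl replicate 3. In the library where it was found Btnl6 was at 8.47% of the FPKM of Btnl1. The limits in the other 3 were 3.32% of Btnl1 in Kdm6bfl/fl replicate 1, 1.44% in Kdm6bfl/fl replicate 3 and 1.33% in Kdm6bfl/fl-CD4Cre replicate 1, all below that share. The 5 genes listed at 0 in the other 3 libraries and at 2.77 FPKM or more in Kdm6bfl/fl-CD4Cre replicate 3 include Btnl6, and 3 to 5 genes met the same condition for each of the other libraries. No gene was at 0 in 1 library and at 10 FPKM or more in the other 3.

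Btnl4 (Entrez 632126, chr17:34468410-34477428) was at 0.04, 0.1, 0 and 0.68 FPKM, which is about 1, 2, 0 and 13 fragments. Like Btnl6 it was highest in Kdm6bfl/fl-CD4Cre replicate 3, where its counting interval was 0.361 to 1.17 FPKM, above the upper bounds of Kdm6bfl/fl replicate 1 (0.236), Kdm6bfl/fl replicate 3 (0.337) and Kdm6bfl/fl-CD4Cre replicate 1 (0.13). Both genes were below 1 FPKM in at least 3 libraries, did not pass the filter on low values and were not tested, so 3 of the 5 ligands entered the comparison.

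The following stretches are shown because they hold the longest run of bases that the Btnl4 and Btnl6 transcripts share. They lie in the last coding exon of each reference transcript, exon 9, at chr17:34469341-34469469 for Btnl4 and chr17:34508102-34508230 for Btnl6 on the minus strand (GRCm38), and capitals mark the bases at which they differ.
Btnl4: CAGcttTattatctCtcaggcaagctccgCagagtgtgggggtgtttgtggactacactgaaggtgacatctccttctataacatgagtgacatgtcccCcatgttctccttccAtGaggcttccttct
Btnl6: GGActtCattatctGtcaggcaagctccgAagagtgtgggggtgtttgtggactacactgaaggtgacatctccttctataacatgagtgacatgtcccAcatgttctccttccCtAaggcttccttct
The stretches differ at 9 of 129 bases and share a run of 69 identical bases. Over the aligned transcripts Btnl4 and Btnl6 were 90.2% identical, while Btnl1 was 73.8% identical to Btnl4 and 73.5% to Btnl6, with no shared run over 19 bases. Of the 50-base windows, 10% of Btnl4 and 7.13% of Btnl6 were also in another gene of this cluster. At 100 bases these shares were 1.44% and 0.0657%, with Btnl5-ps and Btnl7-ps and none between Btnl4 and Btnl6, so most of each transcript was its own. The read length was not given in the sources used here, and fragments that fall wholly in a shared stretch could be assigned to either gene. The related Btnl5-ps and Btnl7-ps were not analysed here.

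Cdh1 (Entrez 12550, chr8:106603350-106670247) was the most abundant of the 5 genes in each library, at 23.9 FPKM in Kdm6bfl/fl replicate 1, 35.09 in Kdm6bfl/fl replicate 3, 28.58 in Kdm6bfl/fl-CD4Cre replicate 1 and 75.68 in Kdm6bfl/fl-CD4Cre replicate 3. A single library was high, and the groups overlapped. The group means were 29.5 ± 7.91 (SD, n = 2) and 52.1 ± 33.3 (SD, n = 2) FPKM. The log2 fold change was 0.67 (SE 0.48), with a limma adjusted p of 0.77, and it was -0.02 without Kdm6bfl/fl-CD4Cre replicate 3 and -0.71 when scaled to the epithelial markers (0.56 relative to the median of all genes). With about 1461 to 3811 fragments per library, its counting intervals did not overlap between any pair of libraries. No 50-base window of its transcript was found in another gene.

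**Figure D1:**
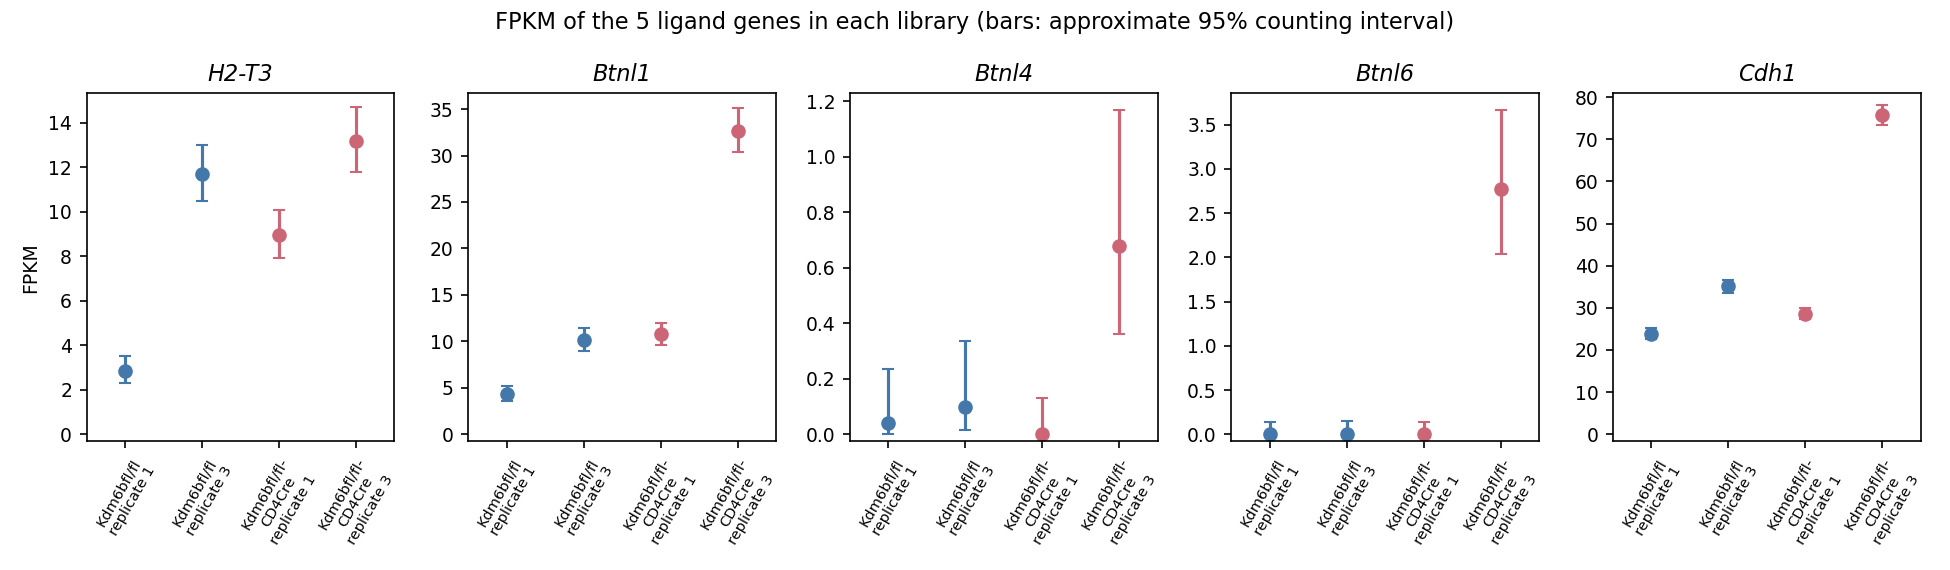
FPKM of H2-T3, Btnl1, Btnl4, Btnl6 and Cdh1 (y axes, one scale per gene) in each library (x axis). Points are single libraries of 3 pooled mice, blue for Kdm6bfl/fl and red for Kdm6bfl/fl-CD4Cre, and bars are approximate 95% counting intervals. Kdm6bfl/fl-CD4Cre replicate 3 is the highest library for each gene, and Btnl6 is at 0 in the other 3.

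By level per transcript length the order was Cdh1, then Btnl1 and H2-T3, then Btnl6 and Btnl4, with no fixed order within either of the last pairs. Btnl6 was above Btnl4 only in Kdm6bfl/fl-CD4Cre replicate 3 (2.77 against 0.68 FPKM), while in the Kdm6bfl/fl libraries it was listed at 0 and Btnl4 at 0.04 and 0.1, and both were at 0 in Kdm6bfl/fl-CD4Cre replicate 1. Btnl1 was above H2-T3 in Kdm6bfl/fl replicate 1 (4.31 against 2.85 FPKM) and in Kdm6bfl/fl-CD4Cre replicate 3 (32.69 against 13.18 FPKM), with counting intervals apart. In Kdm6bfl/fl-CD4Cre replicate 1 (10.75 against 8.97 FPKM) their intervals overlapped, as they did in Kdm6bfl/fl replicate 3, where H2-T3 was the higher at 11.68 FPKM.

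Between genotypes, 1 of the 3 tested ligands, Btnl1, had a log2 fold change above 1, against 6.2% of all 12009 genes tested. The same gene was the 1 of 3 whose groups did not overlap with the Kdm6bfl/fl-CD4Cre libraries higher, against 18.4% of all genes. None of the 3 had a limma adjusted p under 0.05, and nor did any other gene (0% of 12009). The smallest adjusted p was 0.193, and 642 genes had an unadjusted p under 0.05. The median log2 fold change of the genes tested was 0.001.

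Each ligand was then set beside the epithelial RNA of its own library. H2-T3 was 4.1, 3.15 and 4.62 times its level in Kdm6bfl/fl replicate 1 in the other 3 libraries, in the order Kdm6bfl/fl replicate 3, Kdm6bfl/fl-CD4Cre replicate 1 and Kdm6bfl/fl-CD4Cre replicate 3. Btnl1 was 2.34, 2.49 and 7.58 times, and Cdh1 was 1.47, 1.2 and 3.17 times. The epithelial level over the same libraries was 3.14, 3.07 and 7.2 times. Btnl1 was close to the markers in the last library, H2-T3 was close to them in Kdm6bfl/fl-CD4Cre replicate 1, and Cdh1 was below them in all 3. The part of epithelial RNA in the differences between the genotypes was not tested.

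**Figure D2:**
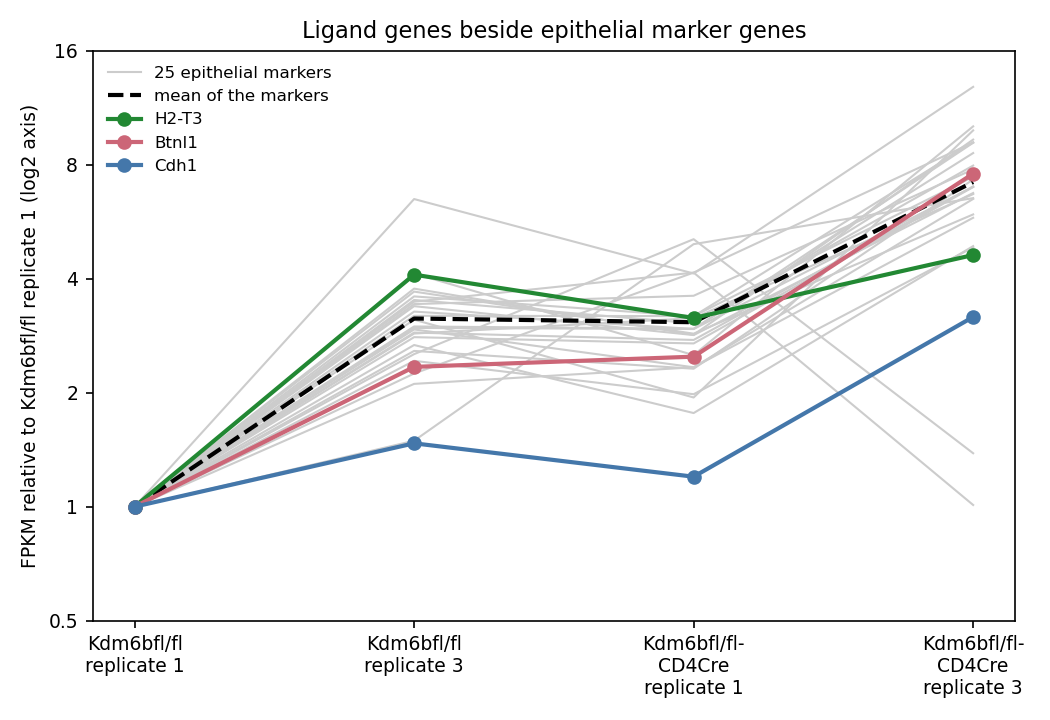
FPKM relative to Kdm6bfl/fl replicate 1 (y axis, log2 scale) in the 4 libraries (x axis) for H2-T3, Btnl1 and Cdh1, with 25 epithelial markers as grey lines and their mean as a dashed line. Btnl1 reaches 7.58 in the last library, close to the marker mean of 7.2, and Cdh1 stays below the mean, at 1.47, 1.2 and 3.17.

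Single libraries were also compared within a genotype. From Kdm6bfl/fl replicate 1 to Kdm6bfl/fl replicate 3, both controls, the log2 ratio of FPKM was 2.04 for H2-T3, 1.23 for Btnl1 and 0.55 for Cdh1, and the median over the 25 markers was 1.58 (range 0.58 to 2.70). From Kdm6bfl/fl-CD4Cre replicate 1 to replicate 3 it was 0.56 for H2-T3, 1.60 for Btnl1 and 1.40 for Cdh1, with a marker median of 1.35 (range -2.04 to 2.34). For each of these ligands, at least 1 of these ratios within a genotype was thus larger than its log2 fold change between the genotypes. Between the genotypes, the log2 ratio of Kdm6bfl/fl-CD4Cre to Kdm6bfl/fl in the libraries numbered 1 was 1.65 for H2-T3, 1.32 for Btnl1 and 0.26 for Cdh1. The marker median was 1.56 (range 0.82 to 2.35). In the libraries numbered 3 the ligand ratios were 0.17, 1.69 and 1.11, with a marker median of 1.24 (range -1.15 to 2.13). All 3 ligands were thus higher in both comparisons, as the marker median was, though not every marker was.

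The pair of libraries with nearly equal epithelial levels, Kdm6bfl/fl replicate 3 (3.14) and Kdm6bfl/fl-CD4Cre replicate 1 (3.07), was also set side by side. The log2 ratio of the second to the first was -0.38 for H2-T3, 0.09 for Btnl1 and -0.30 for Cdh1, beside a marker median of -0.15 (range -0.72 to 1.72). Of the 25 markers, 20 had a larger ratio than H2-T3, 6 than Btnl1 and 18 than Cdh1. The pair was also close in the goblet list (4.43 in the first and 4.03 in the second) and the crypt list (2.16 and 2.48), and less so in the villus enterocyte list (4.85 and 2.97) and the Paneth list (8.04 and 4.82). These are single libraries with no replicate, and they carry no test.

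Divided by the epithelial level of its library, H2-T3 was at 2.85, 3.72, 2.93 and 1.83 FPKM per unit. The values of Btnl1 were 4.31, 3.21, 3.51 and 4.54 per unit, with the groups overlapping. Cdh1 was at 23.90 per unit in Kdm6bfl/fl replicate 1 and at 11.16, 9.32 and 10.51 in the others. In the first control, the library with least epithelial RNA, E-cadherin RNA was thus high for the epithelial RNA present. Epcam and Cdh17 are 2 of the 25 markers in that level, so ratios to them are no independent measure. Cdh1 was at 25.3% of Epcam in that library and at 15.3%, 15.3% and 16.5% in the others. Against Cdh17, the liver-intestine cadherin, it was at 78.1%, 32.6%, 30.6% and 31.1%. These ratios have no test.

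**Figure D3:**
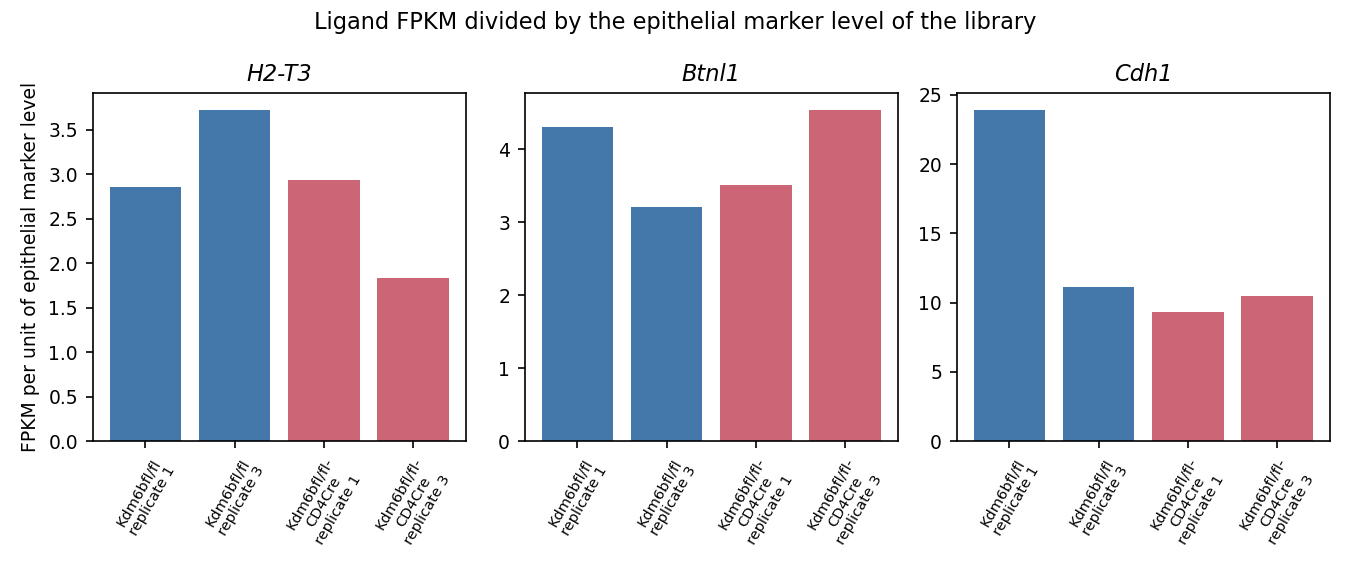
FPKM of H2-T3, Btnl1 and Cdh1 divided by the epithelial marker level of the library (y axis, FPKM per unit, with the level of Kdm6bfl/fl replicate 1 set to 1) in each library (x axis). Bars are single libraries, blue for Kdm6bfl/fl and red for Kdm6bfl/fl-CD4Cre. The Cdh1 bar of Kdm6bfl/fl replicate 1, at 23.90, stands above the other 3, at 9.32 to 11.16, while Btnl1 lies between 3.21 and 4.54.

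The genes whose profile over the 4 libraries was most like that of each ligand differed between the ligands. Likeness was the root mean square distance between log2(FPKM + 1) values, each less its own mean, among 8700 genes. Nearest to Btnl1 were Slc5a1, the sodium-glucose cotransporter of villus enterocytes and 1 of the 25 markers (distance 0.032), and Baiap2l1 (0.055), a membrane and actin adaptor. Slc5a1 was at 11.7, 24.69, 27.31 and 76.02 FPKM. Nearest to Cdh1 were Coq8a (0.020), of coenzyme Q synthesis, and Pld1 (0.038), a phospholipase D. Nearest to H2-T3 were Pbk (0.117), a mitotic kinase, and Stap2 (0.154), a signalling adaptor. The ligands were further from each other, at 0.403 for Btnl1 and Cdh1, 0.523 for H2-T3 and Btnl1 and 0.521 for H2-T3 and Cdh1. With 4 points, these distances describe the libraries and no more.

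The relatives of each ligand were read from lists. Of the 9 butyrophilin-family genes listed, 8 were found, and only Btnl1 and Btnl2 passed the filter. Btnl2, another butyrophilin-like gene, was at 1.51 and 2.16 FPKM in the Kdm6bfl/fl and at 3.35 and 7.29 in the Kdm6bfl/fl-CD4Cre libraries (log2 fold change 1.09, SE 0.42, limma adjusted p = 0.755). Btnl9, Btnl10, Btn1a1 and Btn2a2 were all at or below 0.25 FPKM in each library. The RNA of this family in the libraries was thus mostly that of Btnl1.

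The nonclassical MHC class I list, which includes H2-T3, held genes with values in both directions. Of its 20 genes 17 were found and 15 tested, with a median log2 fold change of -0.33, 0 above 1 and 1 below -1, against 6.2% and 0.441% of all genes tested. The median was 0.06 when scaled to T cell genes and -1.59 when scaled to the epithelial markers. Relative to all genes it was between -0.32 and -0.34 under each scaling, which follows from a scaling that moves all genes nearly alike. The groups were apart with the Kdm6bfl/fl-CD4Cre libraries higher for 4 of the 15 genes, against 18.4% of all genes tested, and lower for 6, against 18.6%. The 1 gene below -1 was H2-M3, which presents formylated peptides, at 21.77, 23.81, 20.66 and 3.0 FPKM (log2 fold change -1.35, SE 0.77, limma adjusted p = 0.755), a difference carried by 1 library. H2-Q7, a Qa-2 gene, was at 205.55 and 147.07 against 115.82 and 78.61 FPKM, with the groups apart. H2-T24 was at 4.15 and 2.68 against 8.06 and 7.19 FPKM, also apart and in the opposite direction. H2-T3 thus shared its low level in the first control with none of these 3 genes.

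Cadherins and their catenin partners gave a positive median. Of 11 genes 10 were found and 9 tested, with a median log2 fold change of 0.81, 2 above 1 (6.2% of all genes tested) and 0 below -1 (0.441%). The median was -0.50 when scaled to the epithelial markers, which include Cdh17 of this list, or 0.77 relative to all genes. Cdh17 was at 30.59, 107.52, 93.31 and 243.48 FPKM (log2 fold change 1.37, SE 0.70, limma adjusted p = 0.755). The brush border protocadherins Cdhr2 (log2 fold change 1.16, SE 0.52) and Cdhr5 (0.87, SE 0.59) were also higher in the mean and did not pass the test. Cdh1 lay below the median of this list.

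Of the receptors for the ligands, Cd8a and Itgae had lower values in both Kdm6bfl/fl-CD4Cre libraries than in either control, and no receptor gene passed the test. Cd8a, which makes both chains of the thymus leukemia antigen receptor CD8αα, was at 462.72 and 417.99 against 336.65 and 280.46 FPKM (log2 fold change -0.52, SE 0.20, limma adjusted p = 0.755). Itgae, the CD103 chain that binds E-cadherin, was at 382.95 and 300.99 against 227.03 and 245.09 FPKM (log2 fold change -0.52, SE 0.20, limma adjusted p = 0.755). These 2 of the 4 tested receptors had groups apart and lower, against 18.6% of all genes tested. Itgb7, its β7 partner, was at 178.6 and 139.62 against 144.45 and 84.41 FPKM and overlapped, as did Klrg1, at 5.88 and 5.63 against 9.64 and 2.61 FPKM (log2 fold change -0.12, SE 0.54). Cd8b1, which was not tested, was at 0 and 0.9 against 1.64 and 0.73 FPKM. Of the 9 receptor genes listed 5 were found and 4 tested, with a median log2 fold change of -0.51, -0.10 when scaled to T cell genes (Cd3d, Cd3e, Cd3g, Cd247 and Ptprc) and -1.91 when scaled to the epithelial markers. Relative to the median of all genes these are -0.51, -0.48 and -0.65, which stay close because each scaling moves all genes nearly alike. The γδ receptor genes on the list were not analysed here.

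Other epithelial ligands and cytokines of IEL receptors gave a mixed picture. Of 19 genes 15 were tested, 4 with a log2 fold change above 1 (6.2% of all genes tested) and 0 below -1 (0.441%). The groups were apart and higher for 5 of the 15 (18.4% of all genes) and apart and lower for 2 (18.6%). The median was 0.32, or -0.79 when scaled to the epithelial markers, which include Epcam of this list. Relative to all genes the scaled median was 0.47. The 3 largest were Nectin2, a nectin adhesion molecule (log2 fold change 1.63, SE 0.64), Ccl25 (1.48, SE 0.59) and Ceacam1, a cell adhesion molecule (1.44, SE 0.43), each with a limma adjusted p of 0.755 and with the groups apart. Ccl25, the epithelial chemokine for CCR9, was at 39.67, 95.51, 106.04 and 283.72 FPKM, with the order of libraries that Btnl1 had.

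The transcription factors of the intestinal epithelium were read last. Of Hnf4a, Hnf4g, Cdx1 and Cdx2, all 4 were tested and 3 had a log2 fold change above 1, against 6.2% of all genes tested. Their median was 1.33, or 0.01 when scaled to the epithelial markers, which is 1.27 relative to all genes. Cdx1 is itself among those markers, so this list is partly scaled to itself. Hnf4a was at 6.88, 16.63, 19.03 and 41.64 FPKM, Hnf4g at 5.57, 26.61, 17.29 and 62.85, and Cdx1 at 3.75, 5.6, 18.51 and 24.49. Hnf4a and Cdx1 had the library order of Btnl1, and Hnf4g and Cdx2 had not. General epithelial markers such as Krt18, Cldn3 and Tff3 had that order too, so it was not particular to these factors. The limma adjusted p was 0.755 for Hnf4a and Cdx1 and 0.761 for Hnf4g.

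**Figure D4:**
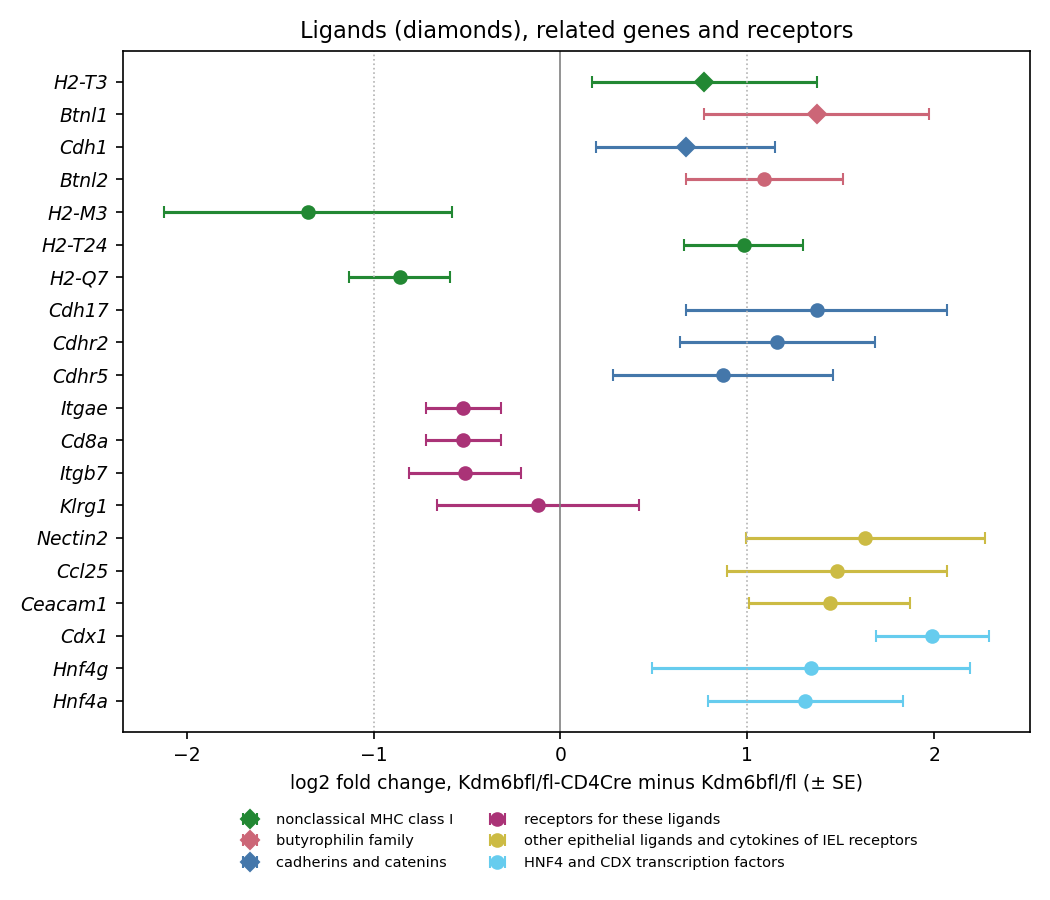
Log2 fold change of Kdm6bfl/fl-CD4Cre minus Kdm6bfl/fl (x axis, log2(FPKM + 1) scale, bars ± SE) for the 3 tested ligands (diamonds), related genes, other ligands, transcription factors and receptors (circles), n = 2 libraries per group. The ligands lie at 0.77, 1.37 and 0.67 and the receptors Itgae, Cd8a and Itgb7 near -0.5, and no gene passed the test.

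Markers of single epithelial lineages were read in the same way. Relative to Kdm6bfl/fl replicate 1, the villus enterocyte list was at 4.85 in Kdm6bfl/fl replicate 3, 2.97 in Kdm6bfl/fl-CD4Cre replicate 1 and 10.9 in Kdm6bfl/fl-CD4Cre replicate 3. The crypt list was at 2.16, 2.48 and 6.15, the goblet list at 4.43, 4.03 and 10.6 and the Paneth list at 8.04, 4.82 and 13.1. All 4 lineages were thus lowest in the first control and highest in the last library, as H2-T3, Btnl1 and Cdh1 were. The villus enterocyte and goblet lists share genes with the 25 general epithelial markers, so they are no separate measure. Of the 25 general epithelial markers, 21 had a log2 fold change above 1 (6.2% of all genes tested) and 0 an adjusted p under 0.05 (0% of all genes), with a median of 1.37 that was -0.01 when scaled to those markers themselves. Myeloid markers were at 0.744, 1.71 and 1.32 and B cell markers at 0.349, 1.15 and 0.517 in the same libraries, in another order.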

How the data were processed

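RNA of sorted TCRβ+CD8αα+ IELs was pooled from 3 mice per library, and the authors mapped reads to mm10 with HISAT and Bowtie2 (2.2.5 per the submitters' processing notes, which also name GRCm38.p5) and quantified genes with RSEM (1.2.8). The deposited values are FPKM per gene, 1 file per library, with no counts, so depth was only estimated from value steps. Gene symbols came from RefSeq (18467 of 19339 IDs matched), whose primary coordinates are those of mm10.

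The 12009 genes that reached 1 FPKM in 2 or more libraries were tested with limma 3.58.1 (trend) on log2(FPKM + 1) in R 4.3.3, with Benjamini-Hochberg adjustment and without covariates. The fitting was tested on simulated data. The pseudocount understates the change of low genes. Counting intervals are exact Poisson at 95%, with 3 fragments as the limit of a count of 0 and 150 bases subtracted from transcript length. Of the low values used, 66.9% to 71.6% lay at 1 or 2 fragments within 0.006 FPKM.

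The epithelial level of a library was the mean of 25 markers, each scaled to Kdm6bfl/fl replicate 1. Named relatives were the 3 tested genes of each list with the largest absolute log2 fold change, and all receptors found. Nearest genes were the 2 closest with a mean of at least 5 FPKM. The members and lists were chosen with earlier results of these data known. Transcript comparisons used GENCODE. Other pseudocounts, filters, scalings, a replicate term and leaving out each library were tried as alternatives.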

Additional observations from a re-analysis of the deposited data

How the results depend on the processing

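The log2 fold change of Btnl1 stayed positive under all 10 alternatives with all libraries (0.09 to 1.75). H2-T3 (-0.43 to 1.12) and Cdh1 (-0.71 to 1.08) were positive under 9 of 10 and reversed when scaled to the epithelial markers, at -0.43 and -0.71. Of these alternatives, the filters, the replicate block and the fit without a trend cannot change a log2 fold change, so they do not bear on its sign. Relative to the median of all genes, which the epithelial scaling lowered, H2-T3 and Cdh1 were at 0.83 and 0.56, near their unscaled values by construction. Leaving out 1 library gave -0.09 to 1.63 for H2-T3, 0.61 to 2.13 for Btnl1 and -0.02 to 1.35 for Cdh1. H2-T3 reversed without Kdm6bfl/fl replicate 1 (-0.09) and Cdh1 without Kdm6bfl/fl-CD4Cre replicate 3 (-0.02). A library left alone in its group was assumed to vary like the others. Of the 3 tested ligands, 1 was past a log2 fold change of 1, against 3 when scaled to T cell genes, 0 when scaled to the epithelial markers and 0 to 3 when 1 library was left out. Among all genes 797 were past it, against 1381 and 1451 with pseudocounts of 0.1 and 0.01, 1480 and 8365 with the T cell and epithelial scalings, and 364 to 1577 with 1 library left out. The T cell and epithelial scalings moved the median of all genes from 0.001 to 0.378 and -1.264, and the cause of the other changes was not tested. Genes with an adjusted p under 0.05 numbered 0 in the fit without a block and 1 with the epithelial scaling.

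With the replicate number as a replicate block, 1019 genes (8.49%) passed, and of the ligands Btnl1 did (log2 fold change 1.37, adjusted p = 0.00508), H2-T3 (adjusted p = 0.156) and Cdh1 (0.0751) did not. Same-numbered libraries deviated together across genes (Pearson 0.56, Spearman 0.542), but the labels tie the numbers to nothing shared, and 2 pairs do not show a pairing. Btnl4 and Btnl6 had a fold change only without the filter, and none is given. The directions of the ligand differences per unit of epithelial level held with the other 2 summaries of the markers.

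With 2 pools per group, no depth given and epithelial RNA unequal between libraries, genotype and epithelial content cannot be told apart in these values.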

Other observations

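A pair of epithelial defence genes, picked after their values were seen, did not have the library order of the ligands. Reg3b, a secreted antimicrobial lectin, was at 889.8 FPKM in Kdm6bfl/fl replicate 1, 1999.9 in Kdm6bfl/fl replicate 3, 3694.87 in Kdm6bfl/fl-CD4Cre replicate 1 and 898.98 in Kdm6bfl/fl-CD4Cre replicate 3. Reg3g, its close relative, was at 781.28, 1975.59, 3974.13 and 1081.26 FPKM. Both were highest in Kdm6bfl/fl-CD4Cre replicate 1. In Kdm6bfl/fl-CD4Cre replicate 3, where H2-T3, Btnl1 and Cdh1 were highest, Reg3b and Reg3g were closer to their level in the first control than to the other 2 libraries.

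Of the cytokines on the list of other ligands, 3 interleukins, picked in the same way, differed in their order. Il15, which sustains CD8αα+ IELs, was at 1.08, 2.36, 2.41 and 2.38 FPKM in the same order of libraries, and Il18 was at 4.26, 10.47, 12.84 and 14.49 FPKM, both lowest in the first control. Il7, below the filter on low values and not tested, was at 0.08 and 0.08 FPKM in the Kdm6bfl/fl libraries and at 0.61 and 0.62 in those labelled Kdm6bfl/fl-CD4Cre.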
